A study of Mus musculus with 12 samples.

Results

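Amino acid and peptide transporters were followed in whole kidneys of mice with and without A1cf. The set holds 36 genes, taken by name from the 46882 gene names of the deposited count table. It covers the sodium-coupled carriers of the brush border and the heavy and light chains of the heteromeric exchangers. It also covers cationic, anionic, proton-coupled and facilitated carriers, and the peptide transporters Slc15a1 and Slc15a2 of the SLC15 family. RNA from whole kidneys was sequenced from 6 wild-type mice (WT) and 6 A1cf -/- mice (A1cf KO), all of strain C57BL/6 and aged 6 to 8 weeks. The product of A1cf binds RNA and is best known as a cofactor of apolipoprotein B mRNA editing. Libraries are called here by genotype and animal number: WT 573, 590, 601, 776, 777 and 778, and A1cf KO 574, 584, 588, 591, 602 and 780. The labels do not state how the A1cf allele was made, the sex of the animals or any batch.

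The kidney filters free amino acids into the tubule fluid, and the proximal tubule takes nearly all of them back. Apical carriers bring them into the cell with sodium or protons or in exchange for other amino acids, and basolateral carriers release them to the blood. Several carriers need a partner protein to reach the membrane: collectrin for the apical SLC6 carriers, rBAT for the cystine exchanger and 4F2hc for the basolateral exchangers. Loss of SLC6A19 causes Hartnup disorder in humans, loss of SLC3A1 or SLC7A9 causes cystinuria, and loss of SLC7A7 causes lysinuric protein intolerance.

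Libraries held 26671705 to 52899139 counts. A1cf itself averaged 54.5 ± 7.39 in WT against 4.11 ± 1.07 in A1cf KO (SD, 6 libraries each) in CPM, which are counts scaled to a common library size with TMM factors, with a log2 fold change of -3.72 (edgeR quasi-likelihood adjusted p = 6.0e-09). Of the transporters, 35 passed the filter on low counts and were tested. The remaining member, Slc7a11, which encodes the cystine and glutamate exchanger xCT, had 2 to 20 counts per library. The animal numbers fall into a lower series (573 to 602, with 3 WT and 5 A1cf KO animals) and a higher series (776 to 780, with 3 WT and 1 A1cf KO animals). The labels do not say what a series stands for. In bulk tissue, fewer cells of a type and less RNA per cell cannot be told apart.

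RefSeq promoter sequence of the build GRCm38.p6 matched 26 of the 36 members, with 38 promoters in all. The 250 bases before the start site were read for each promoter. Those of Slc38a2 and Slc3a1 are printed 5′ to 3′ on the gene's strand. Slc38a2 is shown because it is the transporter with the smallest p for genotype, and Slc3a1 because it alone held a match to an HNF4-type motif, which is printed in capitals.
Slc38a2: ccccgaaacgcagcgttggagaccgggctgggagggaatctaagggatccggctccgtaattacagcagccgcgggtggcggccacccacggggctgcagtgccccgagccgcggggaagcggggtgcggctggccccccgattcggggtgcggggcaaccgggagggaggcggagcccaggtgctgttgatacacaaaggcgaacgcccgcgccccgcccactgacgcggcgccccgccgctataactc
Slc3a1: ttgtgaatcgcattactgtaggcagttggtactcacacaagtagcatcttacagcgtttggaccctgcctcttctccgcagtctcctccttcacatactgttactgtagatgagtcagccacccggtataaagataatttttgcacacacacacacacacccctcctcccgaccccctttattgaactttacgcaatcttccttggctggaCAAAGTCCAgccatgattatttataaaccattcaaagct
The first lies at chr15:96699729-96699978 on the minus strand and the second at chr17:85028097-85028346 on the plus strand of mm10. The HNF4-type motif CAAAGTCCA was searched on both strands. It was found in 0.384% of all 32851 promoters of this length and in 1 of the 38 member promoters. In Slc3a1 it lies 39 to 31 bases before the RefSeq start site. The bases that follow this site were not found in a GENCODE M21 transcript of the gene, though the counted exons begin there, at 85028347. The amino acid response type TGATGNAAT, named for elements bound by ATF4, was found in 0.816% of all promoters and in 0 of the 38 member promoters. The Slc38a2 stretch held neither motif. Sequence outside these 250 bases, introns included, was not searched, so whether a gene holds such an element elsewhere cannot be told. These are matches of letters, not measured binding.

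The levels of the members, given as CPM per kilobase of exon, spanned a wide range. The 5 members with the highest level held 77.3% of the summed level and the first 8 held 85.0%. A level over 10 was reached by 18 members, 10 lay between 1 and 10, and 8 lay under 1. Together the members took 0.503% to 0.599% of the scaled counts in WT libraries and 0.539% to 0.586% in A1cf KO libraries.

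**Figure D1:**
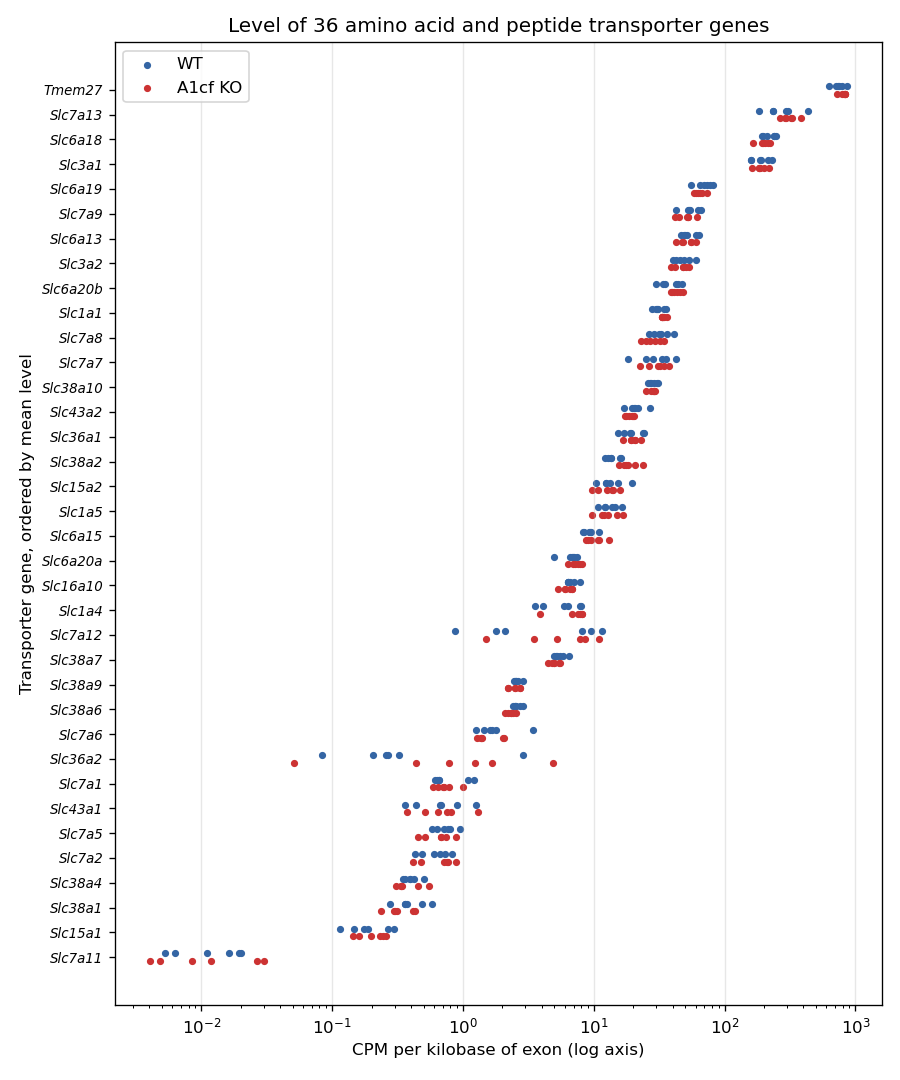
CPM per kilobase of exon (log axis) of all 36 transporter genes, ordered by mean level, with 1 point per library (WT in blue, A1cf KO in red, 6 each). Tmem27, Slc7a13, Slc6a18, Slc3a1 and Slc6a19 stand at the top, Slc7a11 at the bottom, and Slc36a2 and Slc7a12 have the widest spread between libraries among the tested genes.

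The system that brings neutral amino acids in from the lumen is made of apical carriers and a partner protein. Tmem27, which encodes collectrin, the partner that the apical SLC6 carriers need at the cell surface, is no carrier itself and had the highest level of all members at 746 ± 80.3 CPM per kilobase in WT and 805 ± 40.9 in A1cf KO (SD, n = 6 each). Slc6a18, a glycine and alanine carrier of the later proximal tubule (B0AT3), followed in this group with 220 ± 23.1 and 199 ± 20.3 CPM per kilobase. Slc6a19, the main carrier of neutral amino acids (B0AT1), was at 70.1 ± 8.94 and 64.5 ± 5.25. The neighbouring paralogues Slc6a20a and Slc6a20b, of which the first encodes the proline carrier SIT1, were unequal. Slc6a20b was at 38.8 ± 6.76 CPM per kilobase in WT and 42.6 ± 3.48 in A1cf KO, and Slc6a20a at 6.62 ± 0.86 and 7.33 ± 0.63. In a global alignment that allowed gaps, 137 of the 250 bases of their promoters were identical (54.8%). No unrelated promoters were aligned for comparison, so this share is not a measure of relatedness. Parts of both transcripts may not be assigned with certainty. In GENCODE M21, a later release than the counting used, 28.5% of the 50-base words of the longest Slc6a20a transcript also occur in other genes. The gene sharing most of them was Slc6a20b, with 623 words. For Slc6a20b the share was 38.9%, and the gene sharing most was Sacm1l, with 1752 words. How far this affects the counts was not tested.

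Slc6a18 (chromosome 13, 73661750 to 73678023) and Slc6a19 (73679745 to 73704865) lie side by side on the minus strand of mm10, as Slc6a20b (chromosome 9, 123593820 to 123632565) and Slc6a20a (123636122 to 123678885) do. The counted exons add up to 4405 and 5006 bases for the first pair and to 5518 and 2732 bases for the second. Tmem27 lies on chromosome X from 164088830 to 164118860 on the plus strand, with 1544 bases of exon.

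The CPM of this group, in which longer genes count more, overlapped between genotypes for every member. Tmem27 ran from 962 through a median of 1148 to 1333 CPM in WT, and from 1121 through 1268 to 1290 CPM in A1cf KO. The A1cf KO range lies inside the WT range. Slc6a18 ran from 857 through 985 to 1083 CPM in WT and from 724 through 885 to 985 CPM in A1cf KO, with the lowest value in A1cf KO 584. Slc6a19 ran from 279 through 356 to 405 CPM in WT and from 293 through 320 to 367 CPM in A1cf KO, again with the A1cf KO range inside that of WT. The log2 fold changes of A1cf KO relative to WT were 0.11 for Tmem27 (SE 0.075), -0.15 for Slc6a18 (SE 0.086) and -0.12 for Slc6a19 (SE 0.085). Their adjusted p in the edgeR quasi-likelihood test was 0.577 to 0.655. Slc6a20b ran from 166 through 215 to 262 CPM in WT and from 215 through 232 to 264 CPM in A1cf KO. The WT libraries that lay under every A1cf KO library were WT 776, 777 and 778, all of the higher series. Within animals 573 to 602 it ran from 236 to 262 CPM in WT and from 218 to 264 CPM in A1cf KO. Slc6a20a ran from 13.6 through 18.8 to 20.3 CPM in WT and from 17.4 through 20.2 to 22.2 CPM in A1cf KO. The log2 fold changes of Slc6a20a (0.14) and Slc6a20b (0.13) had edgeR adjusted p of 0.61 and 0.68.

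Of the other SLC6 members, Slc6a13, a GABA, betaine and taurine carrier (GAT2), was at 53.5 ± 6.78 CPM per kilobase in WT and 51.6 ± 6.79 in A1cf KO. Slc6a15, a neutral amino acid carrier best known from brain (B0AT2), was at 9.30 ± 0.99 and 10.4 ± 1.64. Slc6a13 ran from 135 through 148 to 184 CPM in WT and from 124 through 150 to 177 CPM in A1cf KO, and Slc6a15 from 30.2 through 33.7 to 40.2 and from 32.0 through 36.9 to 47.9 CPM. Both genes overlapped between genotypes, with the highest Slc6a15 value in A1cf KO 602. Their log2 fold changes were -0.052 and 0.15, and neither passed the edgeR test (adjusted p = 0.89 and 0.62).

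The cystine and dibasic amino acid exchanger is made of a heavy chain and a light chain. Slc3a1, the heavy chain rBAT, was at 190 ± 28.3 CPM per kilobase in WT and 189 ± 19.2 in A1cf KO. Its light chain Slc7a9 (b0,+AT) was at 55.0 ± 8.15 and 50.7 ± 6.88. Slc7a13 (AGT1), the light chain that pairs with rBAT in the last proximal segment, was at 281 ± 87.2 and 312 ± 40.7. In counts per library, Slc3a1 ran from 369 through 433 to 530 CPM in WT and from 376 through 427 to 507 CPM in A1cf KO. Slc7a9 ran from 113 through 145 to 175 CPM in WT and from 112 through 139 to 164 CPM in A1cf KO. Slc7a13 ran from 389 in WT 776 through 567 to 928 CPM in WT 573, and from 565 through 659 to 815 CPM in A1cf KO. The genotypes overlapped for all 3 genes. The log2 fold changes were -0.0044 for Slc3a1, -0.12 for Slc7a9 and 0.15 for Slc7a13, with edgeR adjusted p of 0.99, 0.74 and 0.79. Slc3a1 lies on chromosome 17 from 85028347 to 85064243, Slc7a9 on chromosome 7 from 35448796 to 35466036 and Slc7a13 on chromosome 4 from 19818725 to 19842218. Exons of Prepl on the other strand cover 26.4% of the Slc3a1 exon length, and the counting set no strand, so by default reads in the shared part would be counted for neither gene.

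Among the exchangers that pair with 4F2hc, the heavy chain Slc3a2 itself was at 48.4 ± 7.33 CPM per kilobase in WT and 46.9 ± 5.53 in A1cf KO. It ran from 142 through 166 to 212 CPM in WT and from 138 through 169 to 190 CPM in A1cf KO. The A1cf KO range started just under that of WT and ended inside it. The light chains differed widely in level. Slc7a8 (LAT2), a basolateral exchanger of neutral amino acids, was at 32.7 ± 5.28 and 28.4 ± 4.27 CPM per kilobase, and Slc7a7 (y+LAT1), the basolateral exit of cationic amino acids, at 30.4 ± 8.42 and 30.6 ± 5.35. Slc7a6 (y+LAT2) was at 1.87 ± 0.78 and 1.58 ± 0.35, and Slc7a5 (LAT1), a carrier of large neutral amino acids common in growing cells, at 0.74 ± 0.13 and 0.66 ± 0.16. Slc7a8 ran from 106 through 129 to 166 CPM in WT and from 91.9 through 113 to 138 CPM in A1cf KO, with the lowest value in A1cf KO 780. Slc7a7 ran from 60.6 in WT 777 through 101 to 140 CPM in WT 590, and from 74.0 through 104 to 123 CPM in A1cf KO. Both are on chromosome 14, Slc7a7 from 54369442 to 54417780 and Slc7a8 from 54722216 to 54781886, and the genotypes overlapped for both. Of the 5 tested genes of this group, 4 had a negative fold change, with Slc7a8 at -0.20 (SE 0.11, edgeR adjusted p = 0.56). Slc7a7 was at 0.0095 and shares 7.05% of its exon length with Oxa1l on the other strand.

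Slc7a12, an orphan light chain relative (asc-2), was at 5.65 ± 4.59 CPM per kilobase in WT and 6.25 ± 3.49 in A1cf KO, with the second widest spread of the tested members. The cationic carriers Slc7a1 (CAT1) and Slc7a2 (CAT2), which take up arginine and lysine in most tissues, were both under 1 CPM per kilobase. Slc7a1 ran from 7.09 through 7.54 to 13.98 CPM in WT and from 6.78 through 8.17 to 11.6 CPM in A1cf KO, with the highest WT values in WT 776 and WT 777. Slc7a2 ran from 3.92 through 5.81 to 7.51 CPM in WT and from 3.81 through 6.72 to 8.04 CPM in A1cf KO. The ranges of the genotypes overlapped almost fully for both. Their log2 fold changes were -0.13 and 0.10, with edgeR adjusted p of 0.85 and 0.89.

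Of the SLC1 family, Slc1a1 (EAAC1), the apical carrier of glutamate and aspartate, was the most abundant at 31.6 ± 2.98 CPM per kilobase in WT and 34.1 ± 1.24 in A1cf KO. It ran from 173 through 189 to 221 CPM in WT and from 205 through 208 to 225 CPM in A1cf KO. The A1cf KO libraries all lay in the upper part of the WT range or above it, and the log2 fold change was 0.11 (SE 0.063, edgeR adjusted p = 0.55). The unstranded counting limits this gene most, since 42.6% of its exon length is also covered by 4430402I18Rik on the other strand. The neutral exchangers Slc1a4 (ASCT1) and Slc1a5 (ASCT2) were at 0.25 and -0.038 on the log2 scale, with edgeR adjusted p of 0.71 and 0.94.

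Among the facilitated SLC43 and SLC16 carriers, Slc43a2 and Slc16a10 let neutral amino acids out across the basolateral membrane and were at middle levels. Slc43a2 (LAT4) was at 21.1 ± 3.35 CPM per kilobase in WT and 18.9 ± 1.27 in A1cf KO, and Slc16a10 (TAT1), the aromatic amino acid carrier, at 6.76 ± 0.59 and 6.26 ± 0.56. Slc43a2 ran from 171 through 206 to 272 CPM in WT, with the top value in WT 776, and from 175 through 192 to 205 CPM in A1cf KO. The spread of Slc43a2 was wider in WT, and the A1cf KO range lay inside it. Slc16a10 ran from 34.4 through 34.9 to 42.3 CPM in WT and from 28.9 through 33.9 to 36.9 CPM in A1cf KO, with the lowest value in A1cf KO 602. Slc43a1 (LAT3) was under 1 CPM per kilobase in both genotypes. None of the 3 passed the edgeR test, with adjusted p of 0.57 to 0.98.

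The peptide carriers were far apart. Slc15a2 (PEPT2), the high-affinity carrier of the later proximal tubule, was at 13.9 ± 3.26 CPM per kilobase in WT and 12.8 ± 2.23 in A1cf KO. Slc15a1 (PEPT1), the low-affinity form better known from intestine, was at 0.20 ± 0.071 and 0.21 ± 0.047. Slc15a2 ran from 75.8 through 94.7 to 145 CPM in WT and from 71.7 through 96.8 to 116 CPM in A1cf KO. WT 778 held the highest value and A1cf KO 780 the lowest. Slc15a1 stayed under 1 CPM in every library, at 0.36 to 0.93 for WT and 0.45 to 0.81 for A1cf KO. The log2 fold changes were -0.12 and 0.045, with edgeR adjusted p of 0.81 and 0.97.

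The genotype comparison asked which of these genes differ between A1cf KO and WT kidneys. In the edgeR quasi-likelihood test with Benjamini-Hochberg adjustment over all 16910 genes tested, 0 of the 35 members passed the threshold of 0.05. Over all genes 8 passed, which is 0.0473%. At an unadjusted p under 0.05 there were 2 members (5.71%), Slc38a2 and Slc38a6, against 10.4% of all genes. By limma-voom 0 members passed, and by DESeq2 1 did, Slc38a2, where 1.14% of all genes were called. The members had 15 positive and 20 negative log2 fold changes with a median of -0.038, and the median of all genes was -0.0030. Over all 12 libraries 0 members had genotypes that did not overlap, against 0.84% of all genes.

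**Figure D2:**
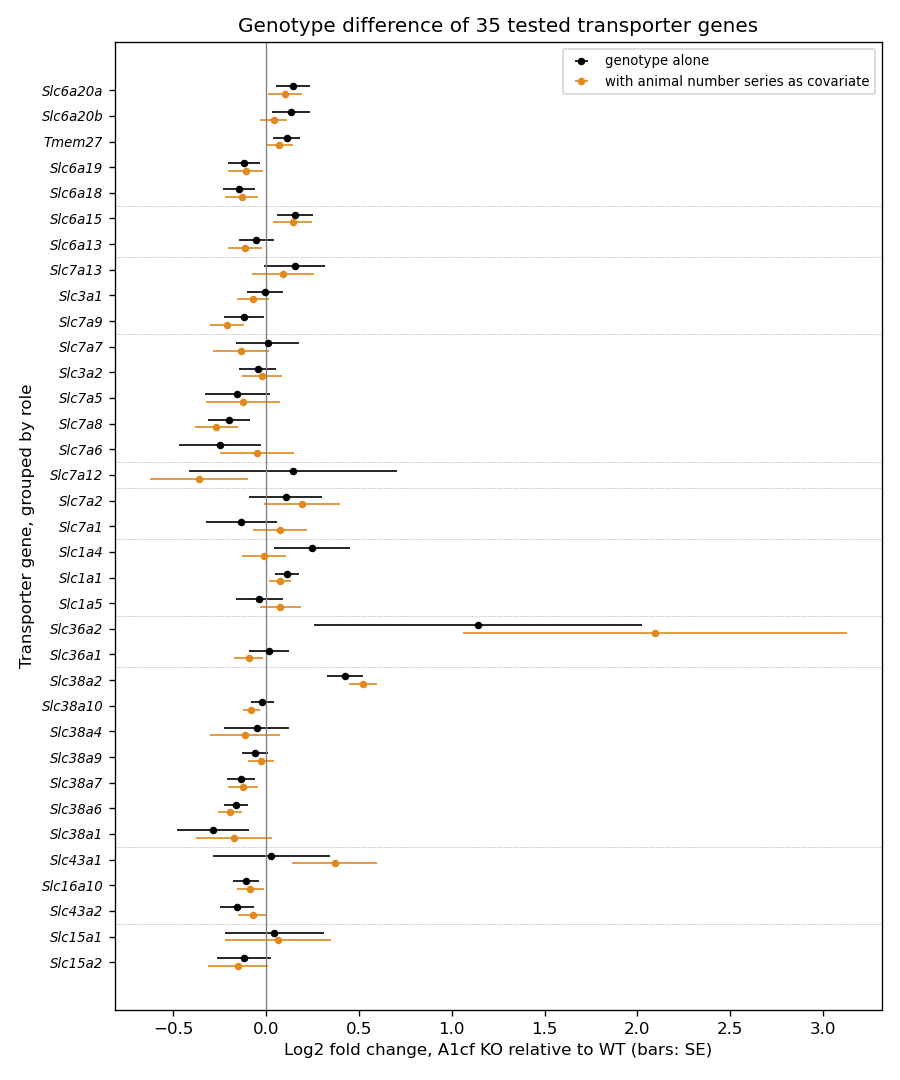
Log2 fold change of A1cf KO relative to WT with its SE for the 35 tested genes, grouped by role, from the fit with genotype alone (black) and with the animal number series as a covariate (orange). Slc38a2 has the smallest p (0.42 and 0.52 in the 2 fits), and Slc36a2 has the largest fold change with the widest error (1.14 with an SE of 0.88).

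Slc38a2 lies on chromosome 15 from 96687394 to 96699698 on the minus strand of mm10, with 4626 bases of counted exon, and none of the 50-base words of its longest transcript occurs in another gene. It encodes SNAT2, a sodium-coupled carrier of small neutral amino acids that many cells make more of when amino acids run short or the medium is hypertonic. It was at 62.4, 59.8 and 56.3 CPM in WT 573, 590 and 601, and at 74.8, 73.0 and 62.8 CPM in WT 776, 777 and 778. In A1cf KO 574, 584, 588, 591 and 602 it was at 84.7, 79.0, 81.7, 94.7 and 72.4 CPM, and in A1cf KO 780 at 109 CPM. All 6 A1cf KO libraries lay above the WT mean, and the genotypes overlapped only in that A1cf KO 602 was below WT 776 and WT 777. The means were 64.8 ± 7.43 and 87.0 ± 13.2 CPM (SD, n = 6 each), a ratio of 1.34, and the log2 fold change was 0.42 (SE 0.098). The unadjusted p was 0.00065 and the adjusted p over all genes 0.17 by edgeR, so it did not pass.

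The call of Slc38a2 depended on the model. With the animal number series as a covariate it rose, with a log2 fold change of 0.52 (edgeR adjusted p = 0.010), and it was 1 of 11 genes higher in A1cf KO in that fit, or 0.0651% of all genes. Slc38a2 also passed in the DESeq2 test (adjusted p = 0.013), which called 1.14% of all genes. Its log2 fold change there, 0.43, was nearly that of the main fit. Within animals 573 to 602 the log2 fold change was 0.47 and the adjusted p 0.23 by edgeR, with 0 members past the threshold, against 0.0402% of all genes. There the 5 A1cf KO libraries all lay above the 3 WT libraries, which held for 2.57% of all genes in this direction and for 1 member. Left out 1 at a time, the libraries gave fold changes of 0.35 to 0.47 and adjusted p of 0.10 to 0.36 in the edgeR test. The level of Slc38a2 was 14.01 ± 1.61 CPM per kilobase in WT and 18.8 ± 2.86 in A1cf KO, so it ranked 16th among the 36 members.

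**Figure D3:**
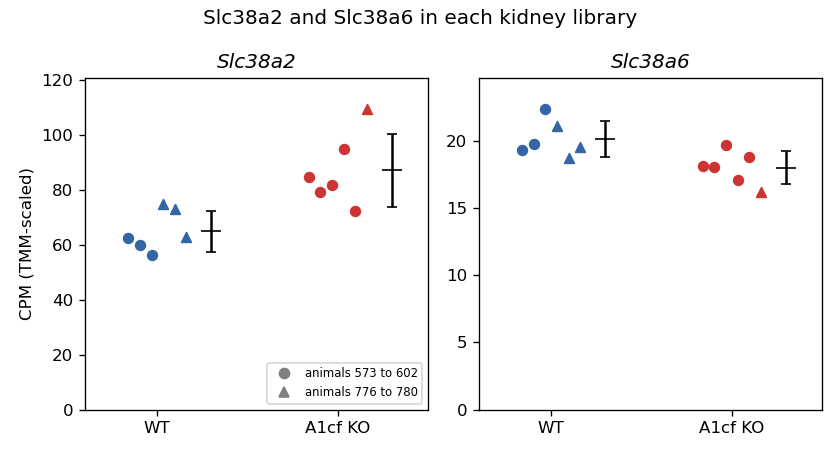
CPM (y axis, starting at 0) of Slc38a2 and Slc38a6 by library (WT in blue, A1cf KO in red, 6 each), the black bars giving mean and SD and the symbol shape the animal number series. For Slc38a2 the A1cf KO libraries run from 72.4 to 109 and the WT libraries from 56.3 to 74.8, and for Slc38a6 they run from 16.2 to 19.7 and from 18.8 to 22.4.

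Slc38a6, a less studied member of the same family, ran from 18.8 through 19.7 to 22.4 CPM in WT and from 16.2 through 18.1 to 19.7 CPM in A1cf KO. All A1cf KO libraries were under the WT mean, with an overlap between 18.8 and 19.7 CPM. The log2 fold change was -0.16 (SE 0.065, unadjusted p = 0.025, edgeR adjusted p = 0.41). Its value is uncertain. In GENCODE M21, a later release than the counting used, 69.9% of the 50-base words of its longest transcript also occur in other genes. Most of these words were in Noct. The other SLC38 members were Slc38a1 (SNAT1), Slc38a4 (SNAT4), Slc38a7, a lysosomal exit of glutamine and asparagine, Slc38a9, a lysosomal arginine sensor of the mTORC1 pathway, and Slc38a10. Slc38a10 was the most abundant of them at 28.5 ± 2.16 CPM per kilobase in WT and 28.1 ± 1.54 in A1cf KO. Slc38a7 was at 5.54 ± 0.56 and 5.03 ± 0.40 and Slc38a9 at 2.59 ± 0.16 and 2.49 ± 0.23, while Slc38a1 and Slc38a4 were under 1. Their log2 fold changes ran from -0.29 for Slc38a1 to -0.020 for Slc38a10, with edgeR adjusted p of 0.545 to 0.942. Slc38a1, Slc38a2 and Slc38a4 lie within one stretch of chromosome 15, and in this fit the other 6 SLC38 members had negative fold changes. Those of Slc38a4 and Slc38a10 turned positive with some single libraries left out.

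Partners that form a complex, and related genes of one family, were compared as log2 ratios within each library, for 9 pairs, by an exact two-sided permutation test for which the smallest possible p is 0.0022. The ratio of Tmem27 to Slc6a19 was 3.41 ± 0.18 in WT and 3.64 ± 0.095 in A1cf KO (log2, SD, n = 6 each, exact p = 0.019, adjusted p = 0.18 over the 9 ratios). All 6 A1cf KO libraries were above the WT mean, but the adjusted value missed the threshold. The ratio was 3.18, 3.48 and 3.21 in WT 776, 777 and 778 and 3.66 in A1cf KO 780. Within animals 573 to 602 the genotypes overlapped. There it was 3.64, 3.44 and 3.52 in WT 573, 590 and 601, and 3.79, 3.63, 3.49, 3.66 and 3.63 in A1cf KO 574, 584, 588, 591 and 602. The ratio of Slc3a2 to Slc7a8 was higher by 0.16 in A1cf KO (exact p = 0.093, adjusted p = 0.42). The other 7 ratios had adjusted p of 0.72 to 0.98, among them those of Slc3a1 to Slc7a9 (1.79 ± 0.22 and 1.91 ± 0.18) and Slc6a20a to Slc6a20b (-2.54 ± 0.20 and -2.54 ± 0.14).

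Other genes of amino acid handling were read from lists beside the members. Of 28 further genes from families of amino acid transporters, 24 were tested and 0 passed by edgeR, DESeq2 or limma-voom, with a median log2 fold change of 0.018. An unadjusted p under 0.05 was reached by Slc6a17, a neutral amino acid carrier of synaptic vesicles (-0.24), and by the mitochondrial aspartate and glutamate carriers Slc25a12 (-0.11) and Slc25a13 (0.16). Slc6a6, the taurine carrier and the most abundant gene of that list, was at 562 ± 65.0 CPM in WT and 566 ± 80.9 in A1cf KO. With the series covariate Slc43a3 passed (log2 fold change 0.35, edgeR adjusted p = 0.027). Slc43a3 was listed for its family and not as a known carrier of amino acids. It is known to be expressed in endothelium and is named here after its value was seen. Brush border peptidases release the amino acids and small peptides that these carriers take up. Of 10 such genes, 6 were negative and 0 passed or reached an unadjusted p under 0.05 with genotype alone. With the series as a covariate 9 were negative (median -0.052), and within animals 573 to 602 also 9 (median -0.14). In both of these fits 1 peptidase had an unadjusted p under 0.05 and 0 passed by edgeR. Mep1a, a meprin subunit and the most abundant of them, was at 1938 ± 296 and 1991 ± 177 CPM.

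Genes induced when amino acids run short were not called. Of 8 such genes 0 passed by edgeR, DESeq2 or limma-voom and 0 had an unadjusted p under 0.05, with a median log2 fold change of -0.12. The direction of this list depended on the animal number series. The median was 0.016 with the series as a covariate (4 of 8 positive, 0 at an unadjusted p under 0.05) and 0.12 within animals 573 to 602 (6 of 8 positive, 1 at an unadjusted p under 0.05), with 0 past the edgeR threshold in both. Atf4, the transcription factor of that response, was at 102 ± 9.80 CPM in WT and 106 ± 14.2 in A1cf KO. Asns, asparagine synthetase, was at 4.90 ± 2.28 and 5.63 ± 2.80 CPM, and Trib3, a pseudokinase gene, at 1.87 ± 0.81 and 1.43 ± 0.92. Hnf4a, a transcription factor gene of the proximal tubule, was at 859 ± 116 and 894 ± 51.9 CPM (log2 fold change 0.06, edgeR adjusted p = 0.85).

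Markers of the cells that hold these transporters give the setting, with 10.4% of all genes at an unadjusted p under 0.05 for comparison. Of the 8 markers of the first proximal segments, 5 were positive and 3 negative, with a median log2 fold change of 0.12. Only 1 had an unadjusted p under 0.05 (Slc22a6, an organic anion carrier, 0.23). The median of these markers was 0.041 with the series as a covariate and 0.016 within animals 573 to 602. Slc34a1, a phosphate carrier and the most abundant of them, was at 4240 ± 1219 CPM in WT and 4814 ± 923 in A1cf KO. The 8 markers of the last segment, 4 positive and 4 negative, had a median of 0.00073. Among them 1 had an unadjusted p under 0.05 (Slc5a8, a monocarboxylate carrier, 0.25). Slc27a2, a fatty acid transport protein and the most abundant of that list, was at 4727 ± 220 and 5041 ± 511 CPM. By edgeR 0 genes of these and the other marker lists passed for genotype.

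For markers of the later tubule the fold changes were negative, with no edgeR call. All 8 markers of the loop of Henle had a negative fold change and an unadjusted p under 0.05, with a median of -0.42, and DESeq2 called 4 of them. Those with the smallest p were Umod, which encodes uromodulin (-0.48), Tmem72 (-0.41) and Ppp1r1a (-0.42), and the genotypes did not overlap for Umod and Cldn16. The summed CPM of the 8 loop markers was 4972 to 7261 for WT and 3774 to 4784 for A1cf KO. All 9 tested markers of the distal tubule and collecting duct were negative too (median log2 fold change -0.27), with 5 at an unadjusted p under 0.05 and 0 called by DESeq2. Those with the smallest p were Atp6v1b1, a proton pump subunit (-0.27), Scnn1b, a sodium channel subunit (-0.26), and Slc4a1, an anion exchanger (-0.31). Slc12a3, the sodium chloride carrier and the most abundant, was at 971 ± 125 and 836 ± 91.1 CPM.

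For 2 other lists most fold changes were positive, again with no edgeR call. Of 8 genes known to be higher in male than in female mouse kidney, all had a positive fold change, with a median of 0.27, 4 at an unadjusted p under 0.05 and 1 called by DESeq2. Those with the smallest p were Cyp2e1 (0.42), Slco1a1 (0.71) and Cyp4a12a (0.52), and Kap, the most abundant, was at 31080 ± 4143 and 35425 ± 5364 CPM. The summed CPM of the 8 genes overlapped, at 28344 to 40192 for WT and 29941 to 46528 for A1cf KO, and within animals 573 to 602 the median was 0.15 with 0 at an unadjusted p under 0.05. Of 6 macrophage markers, 5 had a positive fold change, with a median of 0.33, 3 at an unadjusted p under 0.05 and 2 called by DESeq2. These 3 were Ctss (0.38), Itgax (0.55, with genotypes that did not overlap) and Adgre1 (0.40), and Csf1r, the most abundant, was at 59.7 ± 4.24 and 56.3 ± 6.30 CPM. The summed CPM of the macrophage markers was 80.8 to 102 for WT and 90.6 to 103 for A1cf KO. The 5 endothelial and 5 podocyte markers had medians of 0.049 and 0.011 with 0 at an unadjusted p under 0.05. With the series covariate their medians were 0.31 and 0.17, with 3 and 1 at an unadjusted p under 0.05. Flt1 and Podxl, the most abundant of these lists, were at 44.0 ± 19.1 and 144 ± 30.1 CPM in WT and at 41.1 ± 11.4 and 145 ± 15.4 in A1cf KO. The part of sex and of cell composition in the fold changes of the transporters was not tested.

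The spread between libraries of the same genotype was uneven among the members. The median SD of log2 CPM within genotypes was 0.21 over the 35 tested members and 0.20 over all genes. Slc38a10, Slc38a6 and Slc1a1 varied least, with an SD of 0.096 to 0.10. Slc36a2 (1.88) and Slc7a12 (1.31) stood above 99.9% and 99.5% of all genes, followed by Slc43a1 (0.63) and Slc1a4 (0.45).

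The members were also compared between the 2 animal number series. In an edgeR fit of series with genotype, 5 of the 35 members passed, where 2.9% of all genes did. Higher in animals 573 to 602 than in 776 to 780 were 4 members, against 0.798% of all genes, and 1 was lower, against 2.1%. An unadjusted p under 0.05 was reached by 14 members (40.0%), against 18.4% of all genes. For 6 members the ranges of the 2 series did not overlap, against 2.96% of all genes. This comparison was added with the data in view, and the higher series holds 4 animals.

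**Figure D4:**
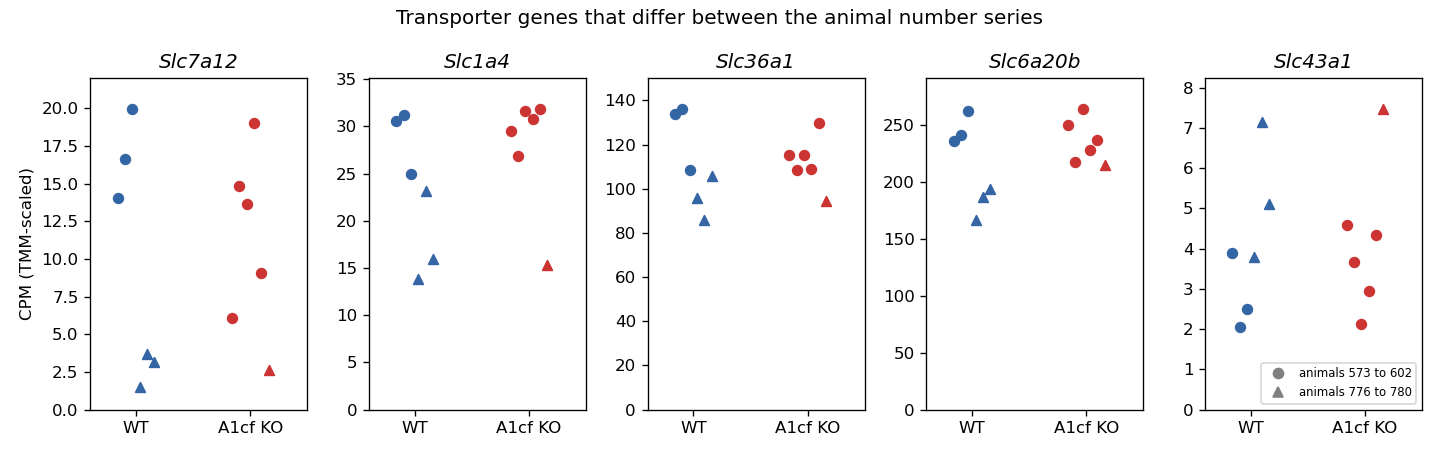
CPM (y axes, each starting at 0) of the 5 transporter genes past the threshold for the animal number series, in WT (blue) and A1cf KO (red), with circles for animals 573 to 602 (n = 8) and triangles for animals 776 to 780 (n = 4). Slc7a12 runs from 6.09 to 19.99 in the first series and from 1.51 to 3.68 in the second, and Slc43a1 goes the other way with overlap.

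Slc7a12 was at 14.1, 16.6 and 19.99 CPM in WT 573, 590 and 601 and at 1.51, 3.68 and 3.14 CPM in WT 776, 777 and 778. In A1cf KO 574, 584, 588, 591 and 602 it was at 6.09, 14.9, 13.6, 19.0 and 9.06 CPM, and in A1cf KO 780 at 2.61 CPM. The series did not overlap, within WT or over both genotypes. The log2 difference of the lower against the higher series was 2.47 (SE 0.31, edgeR adjusted p = 0.00058). The genotype difference of this gene was 0.14 without and -0.36 with the series in the model, and passed in neither fit (adjusted p = 0.95 and 0.60).

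Slc1a4 was at 30.6, 31.2 and 25.0 CPM in WT 573, 590 and 601 and at 13.8, 23.2 and 15.99 CPM in WT 776, 777 and 778. The 5 A1cf KO animals of the lower series ran from 26.9 to 31.9 CPM, and A1cf KO 780 was at 15.3 CPM. The log2 series difference was 0.79 (SE 0.13, edgeR adjusted p = 0.0041), and with it in the model the genotype difference was -0.012 in place of 0.25. Slc36a1 (PAT1), a proton-coupled carrier of small amino acids, ran from 108 to 136 CPM in animals 573 to 602 and from 85.7 to 106 CPM in animals 776 to 780 (log2 difference 0.36, edgeR adjusted p = 0.032). Slc6a20b ran from 218 to 264 and from 166 to 215 CPM (0.33, edgeR adjusted p = 0.034). Slc43a1, the member that was lower in the lower series (-0.99, edgeR adjusted p = 0.040), ran from 2.06 to 4.60 CPM there and from 3.79 to 7.48 CPM in the higher series, with overlap. The ranges of Slc38a10 and Slc43a2 also did not overlap between series, but their adjusted p was 0.066 and 0.15. For Slc38a2 the series difference was -0.30 (edgeR adjusted p = 0.053), opposite in sign to its genotype difference.

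Markers of other cells moved with the series as well. Of 5 endothelial markers, 4 were lower in animals 573 to 602 by edgeR (median log2 difference -0.70), and their summed CPM ran from 113 to 184 there and from 192 to 245 in animals 776 to 780. Of 5 podocyte markers 1 was lower (median -0.36), with sums of 181 to 254 and 211 to 323 CPM. The 8 markers of the first proximal segments had a median of 0.15, with 4 at an unadjusted p under 0.05 and 0 past the threshold by edgeR. The part of these cell types in the series differences of the transporters was not tested.

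Slc36a2 had the largest fold change of the members and the largest spread. It encodes PAT2, a proton-coupled carrier of proline and glycine at the brush border that is also known from the surface of brown fat cells. In WT it was at 0.27, 0.87, 1.05, 0.85, 9.31 and 0.66 CPM in animals 573, 590, 601, 776, 777 and 778. In A1cf KO it was at 4.02, 1.43, 0.17, 2.54, 15.7 and 5.42 CPM in animals 574, 584, 588, 591, 602 and 780. WT 777 and A1cf KO 602 were the highest of their genotypes, and the genotypes overlapped. The log2 fold change was 1.14 (SE 0.88, edgeR adjusted p = 0.69), and it was 2.72 without WT 777 and 0.30 without A1cf KO 602, with no call in either case. With the series as a covariate it was 2.09 (SE 1.04, unadjusted p = 0.063, edgeR adjusted p = 0.42), and within animals 573 to 602 it was 2.70 (SE 1.09, unadjusted p = 0.031, edgeR adjusted p = 0.63). Of the 50-base words of its longest transcript, 3.70% also occur in its neighbour Slc36a1.

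The fat marker genes stood highest in the same libraries. The summed CPM of Adipoq, Plin1, Cidec, Ucp1 and Fabp4 was 346 in WT 777, 498 in A1cf KO 602 and 285 in A1cf KO 780, and between 43.7 and 192 in the other 9 libraries. The WT sums spanned 54.2 to 346 and those of A1cf KO 43.7 to 498. Ucp1, the defining gene of brown fat, had 633 counts in WT 777 and 1015 in A1cf KO 602, and 0 to 124 in the other 10. Of the 4 fat markers that passed the filter on low counts, of which Fabp4 was the most abundant, 0 passed the threshold by edgeR and all had a positive fold change (median 0.82), though 2 were negative by limma-voom. Their unadjusted p was over 0.05. Without those 3 libraries the log2 fold change of Slc36a2 was 1.48 (edgeR adjusted p = 0.47) and that of Slc38a2 0.43 (0.17), in a comparison added after seeing the data. The part of fat tissue in the Slc36a2 values was not tested.

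**Figure D5:**
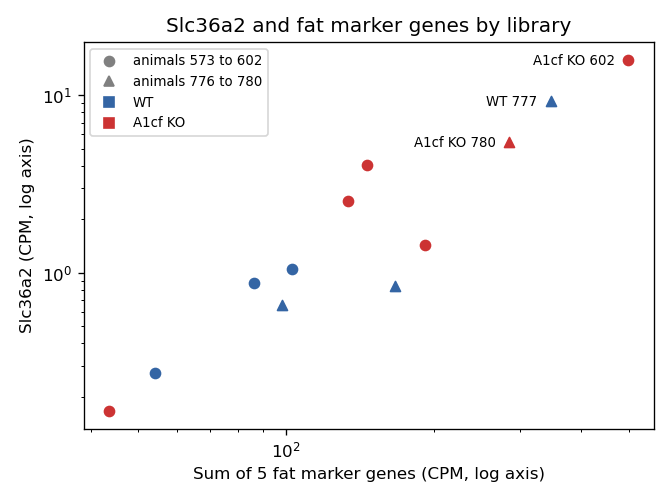
CPM of Slc36a2 against the summed CPM of 5 fat marker genes (both axes logarithmic) in the 12 libraries, by genotype (colour) and animal number series (shape). WT 777 (9.31 and 346 CPM), A1cf KO 602 (15.7 and 498 CPM) and A1cf KO 780 (5.42 and 285 CPM) lie at the upper right, and A1cf KO 588 (0.17 and 43.7 CPM) at the lower left.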

How the data were processed

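The values are read counts per gene name that the authors deposited for 12 libraries of whole kidney, 6 per genotype, which the series calls biological replicates. Per the file headers, the authors counted trimmed, merged and duplicate-marked alignments with featureCounts 1.5.0-p2 over exons of GENCODE M8. The command sets no option for strand, pairs, duplicates, multiple mapping or overlap, so by default reads that hit several genes or places were not counted. Of counts from 6 to 20, 76.4% were even, so a pair of mates may count as 2. Per the submitters' processing notes, STAR, DESeq2 and mm10 were used. The sources used here do not give their versions. The deposited exon length, per the file headers, gave CPM per kilobase.

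Genotypes were compared with edgeR 4.0.16 (R 4.3.3), using filterByExpr, TMM scaling and the quasi-likelihood F test for genotype, with Benjamini-Hochberg adjustment over all tested genes and a threshold of 0.05. DESeq2 1.42.0 and voom of limma 3.58.1 were alternatives. The edgeR fit for genotype was tested on simulated counts, and the alternatives were not. Depth ran from 26671705 to 52899139 counts.

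The members and gene lists were chosen with earlier results of these data known. All 36 members are named. Values in more detail are given for the 8 highest per kilobase, those with an unadjusted p under 0.05 and those whose genotypes do not overlap, and further for members past the threshold for the animal number series or with the widest spread. Of the other lists, the most abundant gene and up to 3 genes with the smallest unadjusted p under 0.05 are named, and further genes were picked after their values were seen. Shared 50-base words were counted in GENCODE M21 transcripts of GRCm38, a later release than the counting used. Alternatives were other scalings and filters, both other tests, a covariate for the animal number series, only animals 573 to 602, each library left out, mitochondrial genes left out before scaling and, added after seeing the data, the 3 libraries highest in fat markers left out. A gene of the list of proximal tubule transcription factors and a motif that was searched are not reported here.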

Additional observations from a re-analysis of the deposited data

Results flagged for a closer look

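In each genotype, the highest and lowest library of every tested member were compared with the other 5 by Dixon's gap test. Of 70 groups of 6 libraries, 8 held a library far from the rest, where the nominal rate for normally distributed values is about 1 in 20. The test was run on CPM, and the share over all genes was not counted. Whether the members differ from other genes in this cannot be told. Slc36a2 stood apart in both genotypes, with 9.31 CPM for WT 777 and 15.7 CPM for A1cf KO 602, the libraries with the highest summed fat markers. Slc7a6 was at 12.7 CPM in WT 777, where the next WT library was at 6.65. In A1cf KO 602, Tmem27 was the lowest of its genotype at 1121 CPM and Slc1a1 the highest at 225 CPM. Slc1a4 was the lowest in A1cf KO 780 at 15.3 CPM, the only A1cf KO animal of its number series. Slc6a20a was the lowest in WT 776 at 13.6 CPM, and Slc38a9 the highest in WT 778 at 25.7 CPM.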

How the results depend on the processing

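No paired analysis was possible because each animal number belongs to 1 library. The count of members past the threshold was 0 and became 1, Slc38a2, in the DESeq2 test and with the series covariate, where 170 and 24 genes passed in place of 8. With single libraries left out it stayed at 0, with 6 to 12 genes in all. Within animals 573 to 602, log2 fold changes turned to -0.043 (Slc6a20b), -0.00077 (Tmem27), -0.050 (Slc7a13), 0.12 (Slc7a5), -0.11 (Slc7a7), -0.43 (Slc7a12), 0.083 (Slc7a1), 0.10 (Slc1a5), -0.13 (Slc36a1), -0.086 (Slc15a1) and 0.0023 (Slc15a2), and the ratio differences of Slc3a2 to Slc7a7, Slc15a1 to Slc15a2 and Slc7a12 to Slc7a13 to 0.075, -0.033 and -0.51. With the series covariate they turned to -0.14 (Slc7a7), -0.36 (Slc7a12), 0.074 (Slc7a1), -0.012 (Slc1a4), 0.076 (Slc1a5) and -0.095 (Slc36a1), and with limma-voom to 0.0037 (Slc3a1) and -0.0021 (Slc43a1). Without the 3 libraries highest in fat markers they turned to 0.013 (Slc3a1), -0.012 (Slc7a7), -0.13 (Slc7a2), -0.051 (Slc36a1), 0.032 (Slc38a4), -0.054 (Slc43a1) and -0.15 (Slc15a1). With single libraries left out, fold changes that changed sign ran from -0.10 to 0.0037 (Slc6a13), -0.051 to 0.057 (Slc3a1), -0.091 to 0.025 (Slc3a2), -0.34 to 0.017 (Slc7a6), -0.10 to 0.13 (Slc7a7), -0.093 to 0.47 (Slc7a12), -0.24 to 0.023 (Slc7a1), -0.12 to 0.035 (Slc1a5), -0.049 to 0.083 (Slc36a1), -0.18 to 0.023 (Slc38a4), -0.048 to 0.0084 (Slc38a10), -0.21 to 0.27 (Slc43a1), -0.076 to 0.20 (Slc15a1) and -0.19 to 0.0066 (Slc15a2). The ratio differences that changed sign ran from -0.087 to 0.035 (Slc6a18 to Slc6a19), -0.043 to 0.050 (Slc6a20a to Slc6a20b), -0.17 to 0.0053 (Slc3a2 to Slc7a7) and -0.046 to 0.64 (Slc7a12 to Slc7a13). None of these values passed the test, and the cause was not tested. Of the 35 tested members, 15 kept their sign in all 22 alternatives. Depth limits Slc7a11, which with 2 to 20 counts per library was left out by the filter on low counts over all 12 libraries, and within animals 573 to 602 it was at 0.088 (edgeR adjusted p = 0.98).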
